A study of Homo sapiens with 6 samples.

Results

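The metallothioneins and 2 genes of the zinc response were followed in DU145 cells, a metastatic castration-resistant prostate cancer cell line. These 8 genes, of 27381 in the table, were MT1E, MT1F, MT1G, MT1M, MT1X, MT2A, MTF1 and SLC30A1. They were chosen by name with their values in all 3 conditions already known, so every level and difference is a description and none is a test. The 6 libraries comprised 2 of control cells (Scr), 2 labelled CD24 KO and 2 labelled RCC2 KO. All cells went through CRISPR/Cas9 editing, with a scrambled sgRNA in the control and sgRNAs against CD24 or RCC2 in the others. The study's methods describe knockout clones grown from sorted cells, and which clones were sequenced is not given. No drug, metal or zinc treatment is named for any group. The authors deposited 1 FPKM value (sequenced fragments scaled to transcript length and library size) per gene and condition, so no spread between libraries can be given and the depth is unknown.

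Metallothioneins are small, cysteine-rich proteins that bind zinc and copper and also capture toxic metals such as cadmium. Their genes are switched on by MTF1, a zinc-sensing transcription factor that binds metal response elements in their promoters when free zinc is high. SLC30A1 (ZnT1), which carries zinc out of the cell across the plasma membrane, is another known target of MTF1. Metallothionein genes also respond to glucocorticoids and to oxidative stress, and normal prostate epithelium is known for its high zinc content, which prostate cancer usually loses.

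Neither targeted gene had less RNA than Scr in the libraries labelled as its knockout. CD24 stood at 93.2 FPKM for Scr, 309 for the libraries labelled CD24 KO and 214 for those labelled RCC2 KO, and RCC2 stood at 37.8, 14.2 and 41.8 FPKM in the same order. The paper reports checks of its DU145 knockout lines by Western blotting, flow cytometry and Sanger sequencing. Those checks read protein or DNA, whereas the values here are RNA. CD24 KO and RCC2 KO below therefore mean the libraries so labelled, and every direction follows those labels as given. The column for RCC2 KO may hold 1 library or both. The epithelial markers KRT8, KRT18, EPCAM and CDH1 were above 0 in every column, from 23.7 FPKM for CDH1 in RCC2 KO to 348 FPKM for KRT8 in RCC2 KO, whereas the prostate luminal markers KLK2 and KLK3 were listed at 0 in all 3 and TMPRSS2 was at 0.110 FPKM or less. A 0 in this table is a listing and not proof of absence, since SLC39A7, the gene of a zinc transporter of the secretory pathway found in most cells, was also listed at 0 throughout.

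Promoter sequences are given, as the stretch in which MTF1 sites are known to lie. They cover the 2 expressed metallothioneins with an entry in the promoter set used, which was drawn from RefSeq and was not complete. SLC30A1 and MT1H, a metallothionein listed at 0 in these cells, are also shown. Of the 8 members, 4 had a promoter entry. Each sequence is the 250 bases before the transcription start on the gene's strand (GRCh38.p14), and the capitals mark the core of the metal response element, TGCACNC or TGCGCNC, searched on both strands. MT2A lies at chr16:56608334-56608583 and MT1X at chr16:56682220-56682469, both on the plus strand. SLC30A1 lies at chr1:211579162-211579411 on the minus strand, and MT1H at chr16:56669564-56669813 on the plus strand.
MT2A: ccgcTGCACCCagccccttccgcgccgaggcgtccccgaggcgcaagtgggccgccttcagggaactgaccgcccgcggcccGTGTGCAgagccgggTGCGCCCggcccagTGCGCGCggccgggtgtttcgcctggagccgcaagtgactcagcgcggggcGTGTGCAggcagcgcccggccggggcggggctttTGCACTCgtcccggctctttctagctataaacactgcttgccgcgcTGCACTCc
MT1X: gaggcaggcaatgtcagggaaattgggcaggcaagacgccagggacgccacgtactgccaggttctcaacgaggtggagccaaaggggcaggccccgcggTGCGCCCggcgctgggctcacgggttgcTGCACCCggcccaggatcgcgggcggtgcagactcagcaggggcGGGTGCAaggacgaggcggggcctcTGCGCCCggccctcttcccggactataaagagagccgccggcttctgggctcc
SLC30A1: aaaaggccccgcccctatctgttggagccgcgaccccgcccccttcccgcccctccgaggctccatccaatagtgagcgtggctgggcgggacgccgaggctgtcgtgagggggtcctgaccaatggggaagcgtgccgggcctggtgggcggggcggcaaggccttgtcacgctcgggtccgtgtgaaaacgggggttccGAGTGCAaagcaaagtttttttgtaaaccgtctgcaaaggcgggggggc
MT1H: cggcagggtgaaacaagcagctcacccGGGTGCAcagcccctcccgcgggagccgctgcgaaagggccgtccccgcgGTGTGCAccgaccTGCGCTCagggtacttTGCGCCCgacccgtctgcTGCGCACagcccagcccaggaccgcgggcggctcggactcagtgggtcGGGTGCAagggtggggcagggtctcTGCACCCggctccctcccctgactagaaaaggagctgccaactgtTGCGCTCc

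The MT2A window held 7 cores and the MT1X window 4, while SLC30A1 had 1 and MTF1 had 0. For SLC30A1 and for MT1B, a further metallothionein, the bases just after the RefSeq start were found in no GENCODE transcript of the gene. The windows of these genes may lie at another start, so their counts and positions may not compare with the others. Among all 35116 promoter entries of the same length, 24.8% held at least 1 core, 0.37% at least 4 and 0.0313% at least 7. MT1X, MT1H and MT1B each had a core beginning 53 bases before the start, and MT2A had 1 beginning 54 bases before it. MT1H held 8 cores, a number reached by 0.0171% of entries, and MT1B and MT4 held 3 each, and all of these genes were listed at 0. Since a listing at 0 is not proof of absence, no order of levels is read from the number of cores. A match of letters is a description and not a bound site.

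**Figure D1:**
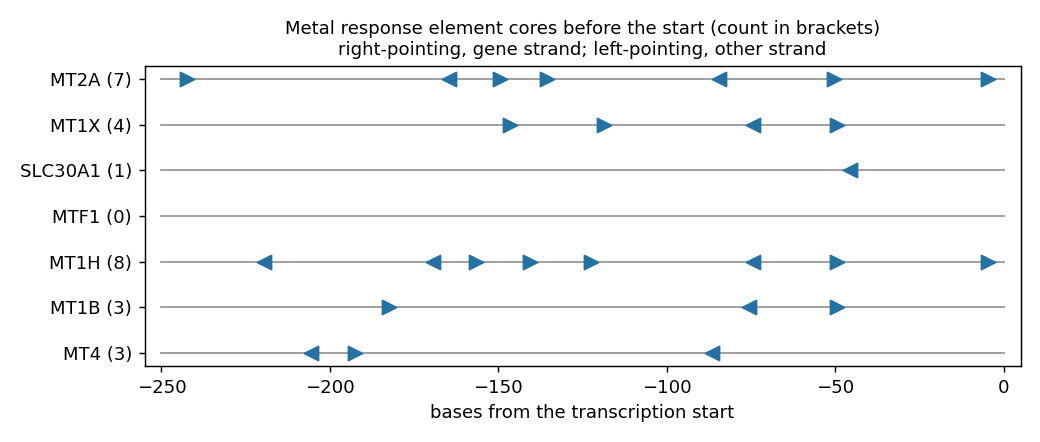
Positions of metal response element cores in the 250 bases before the transcription start of 4 members and of MT1H, MT1B and MT4. Each triangle marks the centre of a core by its distance in bases from the start (horizontal axis), and it points right for the gene strand and left for the other strand. MT2A and MT1H carry the most, with 7 and 8 cores, and MTF1 carries 0. The starts used for SLC30A1 and MT1B were not matched by a GENCODE transcript.

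MT2A, the main metallothionein of most epithelial cells, was one of the most abundant RNAs of the table in Scr and RCC2 KO. It was at 1553 FPKM for Scr, 198 for the libraries labelled CD24 KO and 1479 for those labelled RCC2 KO. In order of FPKM it held place 18 in Scr and place 22 in RCC2 KO, but place 238 in CD24 KO. The level in Scr was 7.86 times that in CD24 KO and 1.05 times that in RCC2 KO. In bulk RNA, fewer cells with a transcript and less of it per cell cannot be told apart. The table places MT2A on chromosome 16 from 56642478 to 56643409 (coordinates read as hg19, here and below), where GENCODE annotates a protein-coding gene with up to 3 exons.

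MT1E was the most abundant MT1 gene in each column. Its level was 176 FPKM for Scr, 56.4 for CD24 KO and 296 for RCC2 KO, so it was lowest in CD24 KO and highest in RCC2 KO. MT1X, at 134, 24.9 and 109.9 FPKM in the same order, had its highest value in Scr. MT1E runs from 56659585 to 56661024 and MT1X from 56716382 to 56718108 on chromosome 16. MT1E and MT1X stood close together in Scr, where their ratio was 1.32, and further apart in RCC2 KO, where it was 2.69.

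MT1M and MT1F were 10-fold or more below MT1E in at least 1 condition. MT1M was at 24.2 FPKM for Scr, 1.60 for CD24 KO and 39.4 for RCC2 KO. Of the members above 0, it showed the widest range, and its level in RCC2 KO was 24.5 times that in CD24 KO. MT1F was at 19.6, 4.0 and 21.0 FPKM in Scr, CD24 KO and RCC2 KO. MT1G was listed at 0 in all 3 columns and was left out of the comparisons. On chromosome 16, MT1M runs from 56666534 to 56667898, MT1F from 56691855 to 56693215 and MT1G from 56700647 to 56701977. MT1G is the only member on the minus strand of the cluster in the GENCODE annotation.

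The regulator and the exporter did not follow the metallothioneins. MTF1 was at 4.87 FPKM for Scr, 4.76 for CD24 KO and 4.96 for RCC2 KO, the narrowest range of the 7 members above 0. SLC30A1 was at 4.37 FPKM for Scr, 7.69 for CD24 KO and 4.73 for RCC2 KO. It was thus the only member whose value was highest in the libraries labelled CD24 KO. Both genes lie on chromosome 1, MTF1 from 38275239 to 38325292 and SLC30A1 from 211748381 to 211752099. Per length, MT2A RNA stood at 319 times MTF1 RNA in Scr, 41.5 times in CD24 KO and 298 times in RCC2 KO.

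**Figure D2:**
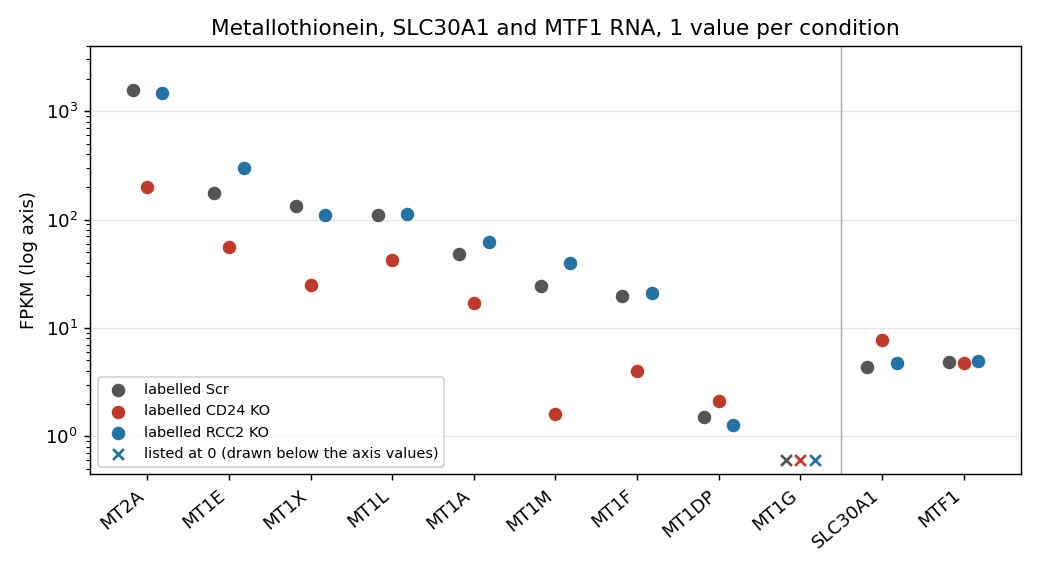
FPKM (log axis) of the 8 members and of the related genes MT1L, MT1A and MT1DP in Scr, CD24 KO and RCC2 KO, with 1 point per condition and no error because each condition has 1 value. Points for CD24 KO lie below the others for MT2A, MT1E, MT1X, MT1L, MT1A, MT1M and MT1F, above them for SLC30A1 and MT1DP, and crosses mark MT1G, listed at 0, at a height that is not a value.

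Differences were taken on the scale of log2(FPKM + 1), which understates those of genes with low values, among the 12822 genes that reached 1 FPKM in any column. Of the 8 members, 7 passed this minimum. In the libraries labelled CD24 KO, 5 of the 7 were at least 2-fold lower than in Scr, against 3.03% of all genes compared, and 0 were at least 2-fold higher, against 2.67%. These were the metallothioneins MT1M (-3.27), MT2A (-2.97), MT1X (-2.38), MT1F (-2.04) and MT1E (-1.63), each as a log2 difference. Their median was -2.38, and the median of all genes compared was -0.034. Counted from the lowest difference of all genes, MT1M held place 10, MT2A place 16, MT1X place 22, MT1F place 38 and MT1E place 62. The contrast was known when the genes were chosen, so nothing is read from these counts. Epithelial markers did not all move alike. KRT8 was at 336 FPKM for Scr and 149 for CD24 KO and KRT18 at 293 and 141, with EPCAM at 58.9 and 44.9. CDH1 was higher in CD24 KO (27.9 and 52.6). Their part in the result was not tested. For MTF1 the log2 difference was -0.026, or 0.0080 after median centring. SLC30A1 had a log2 difference of 0.70, which on the FPKM scale is a level 1.76 times that of Scr.

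The libraries labelled RCC2 KO lay near Scr for most members. None of the 7 was at least 2-fold higher (0, against 0.406% of all genes) and none at least 2-fold lower (0, against 0.796%). MT1E and MT1M had the highest log2 differences, 0.74 and 0.68, equal to 1.68 and 1.63 times the Scr FPKM. The values for MT1F, MT2A and MT1X were 0.095, -0.071 and -0.28, with a median of 0.095 over the metallothioneins. MT1E held place 108 and MT1M place 125 from the highest difference of all genes. The metallothioneins therefore had mixed signs in RCC2 KO. With 1 value per condition, differences as small as those of MT1F and MT2A are not read as directions. MTF1 had a log2 difference of 0.022 and SLC30A1 one of 0.094.

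Set directly against each other, the libraries labelled RCC2 KO were higher than those labelled CD24 KO for each of the 5 metallothionein members compared. In all, 5 of the 7 members were at least 2-fold higher in RCC2 KO, against 4.02% of all genes, and 0 were at least 2-fold lower, against 4.3%. The log2 differences ran from 2.10 for MT1X to 3.95 for MT1M. For MT2A the FPKM in RCC2 KO was 7.48 times that in CD24 KO, and for MT1E it was 5.25 times. SLC30A1 went the other way, with a log2 difference of -0.60, and MTF1 was at 0.048. This comparison shares its CD24 KO column with the first and its RCC2 KO column with the second, so it adds no independent measurement.

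**Figure D3:**
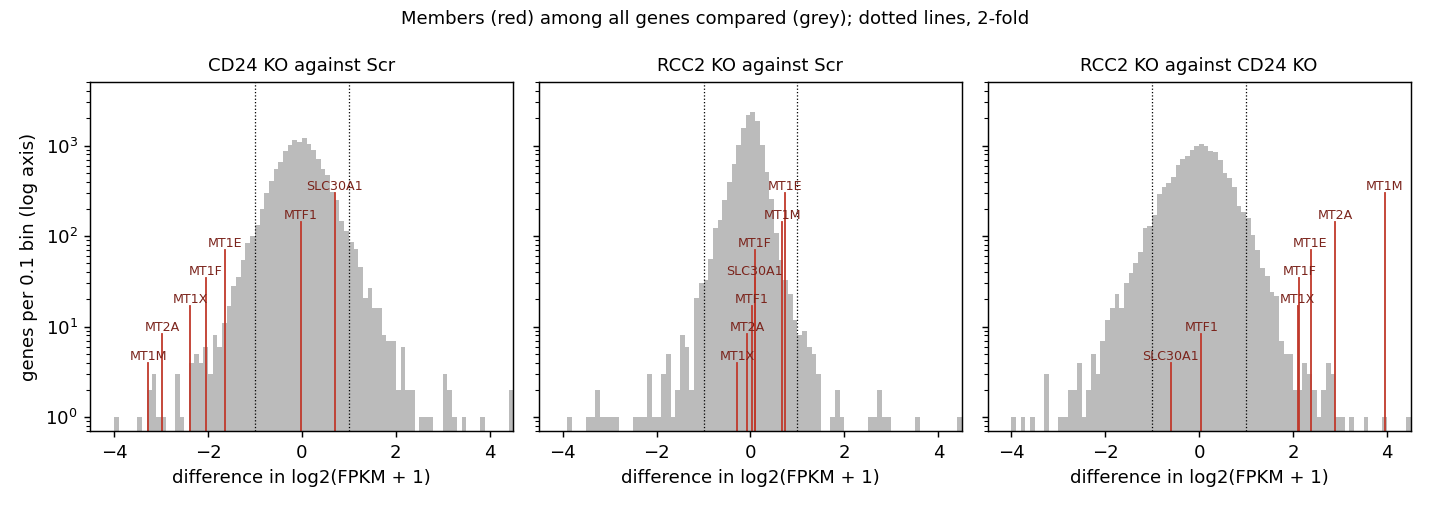
Differences in log2(FPKM + 1) of the 7 members compared (red lines, at heights set only for legibility) over the distribution of 12822 genes (grey, genes per bin of 0.1, log axis), drawn between -4.5 and 4.5. Dotted lines mark 2-fold. The 5 metallothioneins lie between -3.27 and -1.63 in CD24 KO against Scr, and between 2.10 and 3.95 in RCC2 KO against CD24 KO, whereas all 7 members lie inside the dotted lines in RCC2 KO against Scr.

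Of the other metallothionein genes and pseudogenes, 10 were in the table and 3 were compared. MT1A, a functional gene, was at 47.8 FPKM for Scr, 17.0 for CD24 KO and 61.7 for RCC2 KO. MT1L, annotated by GENCODE as a transcribed pseudogene, was at 110.4, 42.5 and 111 FPKM in the same order. Both were thus lowest in CD24 KO, with log2 differences from Scr of -1.44 and -1.36. MT1DP, also a pseudogene, was the exception at 1.49, 2.12 and 1.26 FPKM, a log2 difference from Scr of 0.32 in CD24 KO. MT3, known from brain, was listed at 0 in Scr and CD24 KO and at 0.589 FPKM in RCC2 KO. The other 6 genes found in the table, MT1B, MT1H, MT1HL1, MT1JP, MT1IP and MT4, were listed at 0 throughout, as were 31.9% of all genes.

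The similarity of these genes bears on how well their values are separated. No stretch of 100 bases of a GENCODE transcript of MT2A, MT1E, MT1F, MT1M or MT1G occurred in a transcript of another gene. Of the MT1X stretches, 11.3% also occurred in AC026461.1, a GENCODE gene that overlaps MT1X. At 30 bases, 24.5% of MT1M stretches and 16.4% of MT1E stretches occurred in another metallothionein gene, against 5.09% for MT1X, 4.67% for MT2A and 3.46% for MT1F. Fragments with short or inexact matches could have been divided between genes. Each share is over all annotated transcripts of a gene, and long transcripts lower it. The longest had 1573 bases for MT1F and 829 for MT1M, so no order of certainty between the genes is read from these shares.

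Sums over the genes depend less on how fragments were divided between them. Over the 6 metallothionein members the FPKM summed to 1907 in Scr, 284 in CD24 KO and 1945 in RCC2 KO. As a share of all FPKM in the column, these sums were 0.423%, 0.0732% and 0.435%. The Scr sum was 6.71 times that of CD24 KO, so the log2 difference of CD24 KO from Scr was -2.74, and that of RCC2 KO from Scr was 0.028 (-0.064 after quantile normalization). With all 16 metallothionein genes and pseudogenes of the table the sums were 2067, 346 and 2119 FPKM.

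The make-up of the family also differed between columns. MT2A supplied 75.1% of the family sum in Scr, 57.1% in CD24 KO and 69.8% in RCC2 KO. The share of MT1E was 8.53% in Scr, 16.3% in CD24 KO and 14.0% in RCC2 KO. MT1L took 12.3% in CD24 KO, against 5.34% in Scr and 5.25% in RCC2 KO. MT1M, at 1.17% in Scr and 1.86% in RCC2 KO, was at 0.464% in CD24 KO. The lower metallothionein RNA in CD24 KO was thus unequal between genes, with MT2A and MT1M losing share and MT1E and MT1L gaining it.

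**Figure D4:**
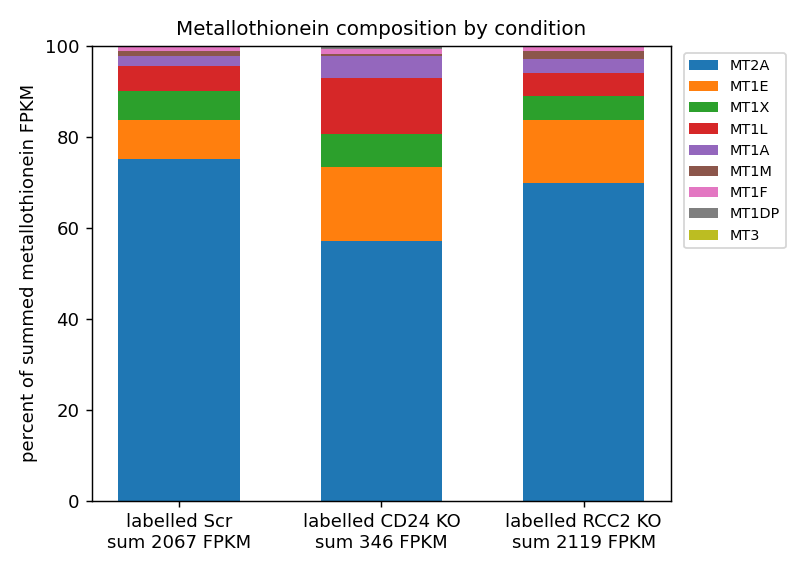
Share of each gene in the summed FPKM of all metallothionein genes and pseudogenes, in percent, for Scr, CD24 KO and RCC2 KO, with the sum printed under each bar. MT2A makes up 75.1%, 57.1% and 69.8% of the bars, and the sum is 346 FPKM in CD24 KO against 2067 FPKM in Scr and 2119 FPKM in RCC2 KO.

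All metallothionein genes named here except MT1HL1 lie in 1 cluster on chromosome 16, from MT4 at 56598961 to MT1X ending at 56718108. Within 500 kb of the cluster, 10 other genes were compared. Their log2 differences ran from -0.54 to 0.83 in CD24 KO and from -0.28 to 0.12 in RCC2 KO, so 0 of the 10 were past 2-fold in either. In CD24 KO 3.03% of all genes were at least 2-fold lower and 2.67% higher. In RCC2 KO these shares were 0.796% and 0.406%, so a count of 0 among 10 is near the background in both. The nearest compared gene before the cluster, BBS2 (a Bardet-Biedl syndrome gene), was at 20.9 FPKM in Scr and 25.9 FPKM in CD24 KO. NUP93, a nuclear pore gene and the nearest one after the cluster, was at 51.2 and 34.9 FPKM. HERPUD1, which belongs to the unfolded protein response, had the highest difference of the 10.

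**Figure D5:**
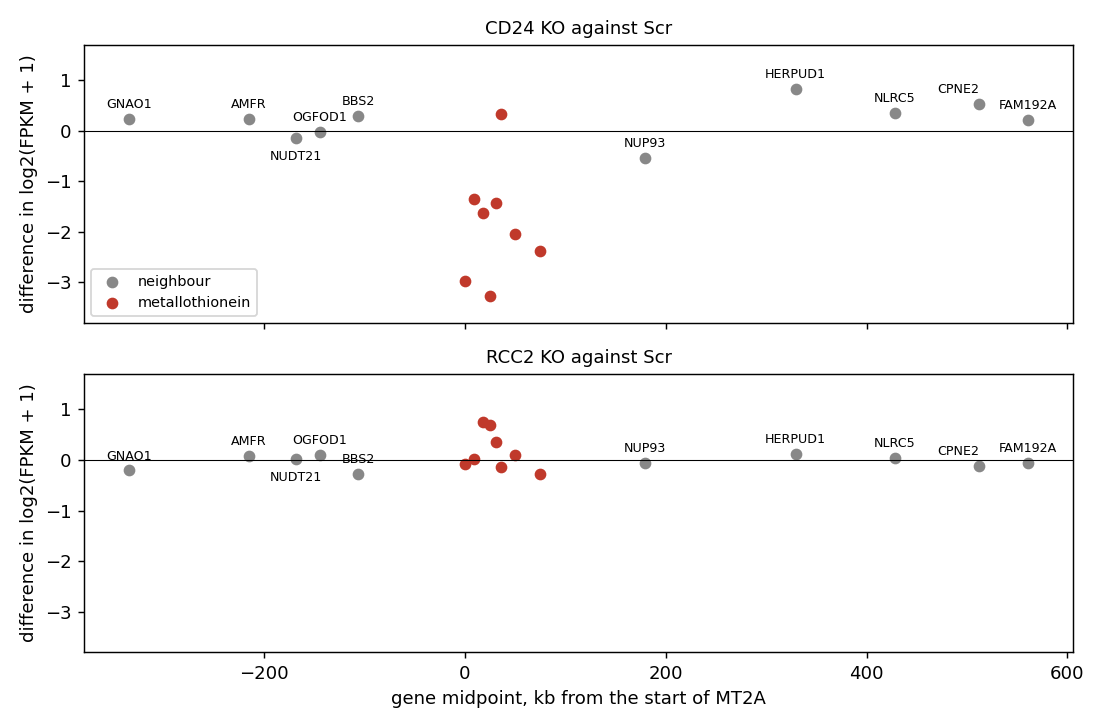
Difference in log2(FPKM + 1) from Scr for compared genes within 500 kb of the metallothionein cluster, placed by the distance of each gene's midpoint from the MT2A start in kb (red, metallothionein genes and pseudogenes, grey, neighbours). In CD24 KO the red points reach -3.27 with MT1DP alone above 0, while the neighbours lie between -0.54 and 0.83. In RCC2 KO all points lie between -0.28 and 0.74.

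Other genes of zinc handling were mostly within 2-fold, as were most genes of the table. Of the 9 further SLC30 transporters, most of which move zinc out of the cytosol, 6 were compared. Of these, 0 were past 2-fold in CD24 KO (against 3.03% of all genes lower and 2.67% higher), where their median log2 difference was 0.029. SLC30A3, a low-level vesicular transporter at 1.55 FPKM for Scr, 1.93 for CD24 KO and 0.240 for RCC2 KO, was the only one past 2-fold in RCC2 KO, where 0.796% of all genes were at least 2-fold lower. Of the 14 SLC39 importers, which bring zinc into the cytosol, 10 were compared. Of these, 0 were past 2-fold in either knockout, near those background shares and the 0.406% of all genes higher in RCC2 KO. In CD24 KO 8 of the 10 were higher and 2 lower than in Scr, with a median of 0.11, against 6022 higher and 6787 lower among all genes. SLC39A8 (ZIP8), which also imports cadmium and manganese, had the largest difference, with 34.3 FPKM for Scr, 59.2 for CD24 KO and 37.2 for RCC2 KO. SLC39A11 stood at 10.8, 13.0 and 8.37 FPKM in that order.

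Of 6 other known MTF1 targets, 5 were compared. In CD24 KO 0 of the 5 were past 2-fold, against 3.03% of all genes lower and 2.67% higher. In RCC2 KO against Scr 0 were past 2-fold, against 0.796% of all genes lower and 0.406% higher. In RCC2 KO against CD24 KO 0 were past 2-fold, against 4.3% lower and 4.02% higher. These counts are near the background. The median log2 difference of the 5 from Scr was -0.18 (CD24 KO) or -0.11 (RCC2 KO). SLC39A10, a zinc importer that MTF1 represses, was at 22.1 FPKM for Scr, 24.5 for CD24 KO and 17.5 for RCC2 KO. PGF, a placental growth factor gene, was at 2.36, 1.96 and 1.24 FPKM. All 11 copper handling genes were compared and 0 were past 2-fold in any comparison, again near the shares just given. SOD1, the copper and zinc superoxide dismutase, was at 275 FPKM for Scr, 163 for CD24 KO and 290.3 for RCC2 KO, and SCO1, a copper chaperone of cytochrome oxidase, at 40.7, 24.7 and 38.8 FPKM.

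Genes of the stress and hormone signals known to act on metallothioneins gave mixed values. Among 9 metal and oxidative stress genes, 7 were compared, and 2 were at least 2-fold lower (against 3.03% of all genes) and 0 at least 2-fold higher (against 2.67%) in CD24 KO. Those lower were HMOX1, the heme oxygenase induced by metals and oxidants, at 88.7 FPKM for Scr, 32.3 for CD24 KO and 64.6 for RCC2 KO, and the heat shock gene HSPH1, at 35.4, 14.7 and 34.2 FPKM. Of the 8 glucocorticoid receptor and target genes, 7 were compared, and 2 were at least 2-fold higher (against 2.67% of all genes) and 0 at least 2-fold lower (against 3.03%) in CD24 KO. TSC22D3 (GILZ) was at 4.15 FPKM for Scr, 10.5 for CD24 KO and 4.16 for RCC2 KO, and the kinase gene SGK1 at 3.22, 8.15 and 2.69 FPKM. KLF9, at 10.2, 9.14 and 2.25 FPKM, was at least 2-fold lower in RCC2 KO than in Scr, as were 0.796% of all genes. HMOX1 and HSPH1 were thus lowest in CD24 KO, like MT2A, while TSC22D3 and SGK1 were highest there. The part of these genes in the metallothionein values was not tested.

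Genes of other families had values like those of the metallothioneins over the 3 conditions. Likeness was the distance of a gene's pair of log2 differences from Scr (CD24 KO and RCC2 KO) to the median pair of the metallothioneins, among 8812 genes above 0 in every column with a mean of at least 5 FPKM. Among the nearest outside the family were SRSF1 (0.21), SRSF2 (0.28), HSPA8 (0.28) and TAGLN (0.34). The splicing factor genes SRSF1 and SRSF2 were at 19.4 and 30.03 FPKM in CD24 KO, against 116 and 157 FPKM in Scr. HSPA8, the constitutive cytosolic chaperone gene, was at 1764, 278 and 1864 FPKM in Scr, CD24 KO and RCC2 KO, and so was close to MT2A in level as well. With 3 conditions and 1 value for each, such likeness is a description of the columns only. MT1F, MT1X and MT2A themselves lay at distances of 0.34, 0.38 and 0.61 from that median pair, and MT1E and MT1M further off at 0.99 and 1.07. The pair is made of the MT1X difference in CD24 KO and the MT1F difference in RCC2 KO, so the closeness of these genes is built in.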

How the data were processed

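RNA-seq of 6 DU145 libraries, 2 per condition, was deposited as 1 table of FPKM values with 1 column per condition. The column names point to combined libraries for Scr and CD24 KO, and the RCC2 KO column may hold 1 library or both. The submitters' processing notes name HISAT, StringTie, Cufflinks and GATK, with no roles or versions. The genome build is not given in the sources used here. Of 25034 GENCODE 29 gene entries with a matching symbol, 15.8% overlapped their GRCh38 position, so loci were read as hg19, with starts counted from 1. FPKM was used as deposited, on the scale of log2(FPKM + 1), for genes with at least 1 FPKM in at least 1 column. No replicate values, counts or depth were at hand, so no test was run, and a 2-fold difference was used as the limit.

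The members, the gene lists and the rules for naming genes were chosen with earlier results of these data known, and the lists were written from general knowledge. Named were all members, all related metallothionein genes, list genes past 2-fold in any comparison (or otherwise the 2 with the largest difference), the nearest neighbours on chromosome 16 and the 5 genes nearest in pattern. Some genes under these rules, cell type markers among them, are not reported here. HERPUD1 and genes named for a listing at 0 fall outside that rule. Promoters came from RefSeq (GRCh38.p14) and transcripts from GENCODE 29. The calculations were run on simulated data for CD24 KO against Scr. There, 200 of 200 planted changes among 27381 genes were recovered and 0 others passed 2-fold. The planted changes lay well past 2-fold in columns otherwise nearly alike, so this checked the code and not the accuracy of the values. Python 3.11.15, NumPy 2.4.6, pandas 2.3.3 and matplotlib 3.10.9 were used. Alternatives were pseudocounts of 0.1 and 5, median centring, quantile normalization, no filter, a filter of 1 FPKM for every column, and minimums of 1.5-fold and 3-fold.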

Additional observations from a re-analysis of the deposited data

How the results depend on the processing

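No setting reversed the difference of a metallothionein member in CD24 KO against Scr or in RCC2 KO against CD24 KO, and 5 members stayed past the fold minimum in both under every alternative, the 3-fold minimum included. The median log2 difference of the metallothionein members in CD24 KO ran from -2.42 with a pseudocount of 0.1 to -2.14 with a pseudocount of 5. In RCC2 KO against Scr the median stayed between 0.047 (no filter) and 0.099. Counts moved only with the 1.5-fold minimum, which added 1 higher member in CD24 KO (SLC30A1), 2 higher members in RCC2 KO (MT1E and MT1M) and 1 lower member in RCC2 KO against CD24 KO (SLC30A1). A pseudocount of 5 took MT1M in CD24 KO to -2.14 and MT1F to -1.45, and in RCC2 KO against CD24 KO to 2.75 and 1.53, as its construction does for low values. Of 207 alternative values, 200 stayed within 1.5-fold of the reported one. The filter settings cannot change the difference of a single gene, so part of this stability is built in. With 1 value per condition, no replicate could be left out. No paired analysis was possible because each condition has only 1 column. The depth is unknown, and no interval can be given for values such as 1.60 FPKM for MT1M.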
